A study of Mus musculus with 81 samples.

Results

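The genes described here form the endoplasmic reticulum stress and folding set of mouse liver, 36 listed genes that encode stress sensors, the transcription factors they switch on, and the chaperones, oxidoreductases and degradation factors that serve secreted proteins. A gene was taken where a probe set carried its symbol, and the probe set with the highest mean was kept. This found 35 of the 36 among 21765 genes. The missing symbol was Ppp1r15a, which appears under its older name Myd116 and is given beside the members without being counted. Liver RNA came from male mice, fasted overnight and 29 weeks old, of the BXD strains (inbred lines bred from a cross of C57BL/6J with DBA/2J) and of both parents. The control groups ate Harlan 2018 chow, and the other groups changed to the high-fat diet Harlan 06414 at week 8. Each array held a pool of RNA from about 5 animals of 1 strain and 1 diet. Chow was represented by 41 arrays and high fat by 40, from 42 strains, and the 39 strains with both diets gave 78 paired arrays.

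Proteins that enter the secretory pathway fold in the endoplasmic reticulum, helped by chaperones such as BiP (Hspa5) and by enzymes that form disulfide bonds. When unfolded protein accumulates, the membrane sensors IRE1 (Ern1), PERK (Eif2ak3) and ATF6 raise the transcription of folding and degradation genes and slow translation. Hepatocytes secrete most plasma proteins and are known for a high load on this machinery.

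Many of these genes are known to carry the endoplasmic reticulum stress element (ERSE), to which ATF6 and XBP1 bind together with NF-Y, near their start sites. RefSeq promoter windows (GRCm38.p6, from 250 bases before to 50 after the annotated start) were at hand for 31 of the 35 members, all but Atf6, Derl1, Hyou1 and Manf. The stretch of Hspa5 before its start is shown whole because this gene anchors the comparisons between strains below; it lies at chr2:34771840-34772089 on the plus strand, and capitals mark the ERSE.
Hspa5: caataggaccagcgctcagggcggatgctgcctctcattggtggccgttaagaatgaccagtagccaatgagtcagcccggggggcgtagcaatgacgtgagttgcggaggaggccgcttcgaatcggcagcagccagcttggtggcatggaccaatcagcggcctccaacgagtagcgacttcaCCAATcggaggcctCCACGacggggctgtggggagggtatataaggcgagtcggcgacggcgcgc
The next stretches are shown because the members they belong to passed the diet test or varied closely with Hspa5. They give each match with 6 bases on either side, on the strand on which the motif reads forward, and capitals mark the fixed letters of the motif.
Hsp90b1, chr10:86705632-86705662, minus strand: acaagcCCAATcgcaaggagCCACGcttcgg
Hsp90b1, chr10:86705527-86705557, plus strand: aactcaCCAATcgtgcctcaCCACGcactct
Calr, chr8:84847069-84847099, plus strand: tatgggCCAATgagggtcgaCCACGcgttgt
Creld2, chr15:88819514-88819544, minus strand: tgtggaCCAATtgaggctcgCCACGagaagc
Pdia6, chr12:17266485-17266515, plus strand: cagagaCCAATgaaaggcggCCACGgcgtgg
Derl3, chr10:75893236-75893266, minus strand: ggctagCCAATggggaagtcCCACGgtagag
Syvn1, chr19:6046526-6046556, plus strand: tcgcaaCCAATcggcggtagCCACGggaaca
Dnajb11, chr16:22857846-22857868, plus strand: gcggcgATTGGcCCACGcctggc
All motifs were searched on both strands, the ERSE as CCAAT, any 9 bases and CCACG. It was present for 10 of the 31 members with a window, 32.3%, against 0.119% of all 32851 windows. The 31 members had 32 windows, so the member shares count genes and the background shares count windows. The ERSE lay in the windows of Calr, Canx, Creld2, Derl3, Dnajc3, Ero1lb, Hsp90b1 (with 2 matches), Hspa5, Pdia6 and Syvn1. The related ERSE-II, searched as ATTGG, any base and CCACG, was present in those of Dnajb11 and Herpud1, 6.45% of the members against 0.0365% of all windows. The CARE core TTGCATCA, a form of the element that ATF4 binds, was present in Atf3, Chac1 and Herpud1 (9.68% against 0.895%). The UPRE core TGACGTGG was present for 0 of 31 members, against 0.676% of all windows. No matches in member windows overlapped, and a match describes the letters only.

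**Figure D1:**
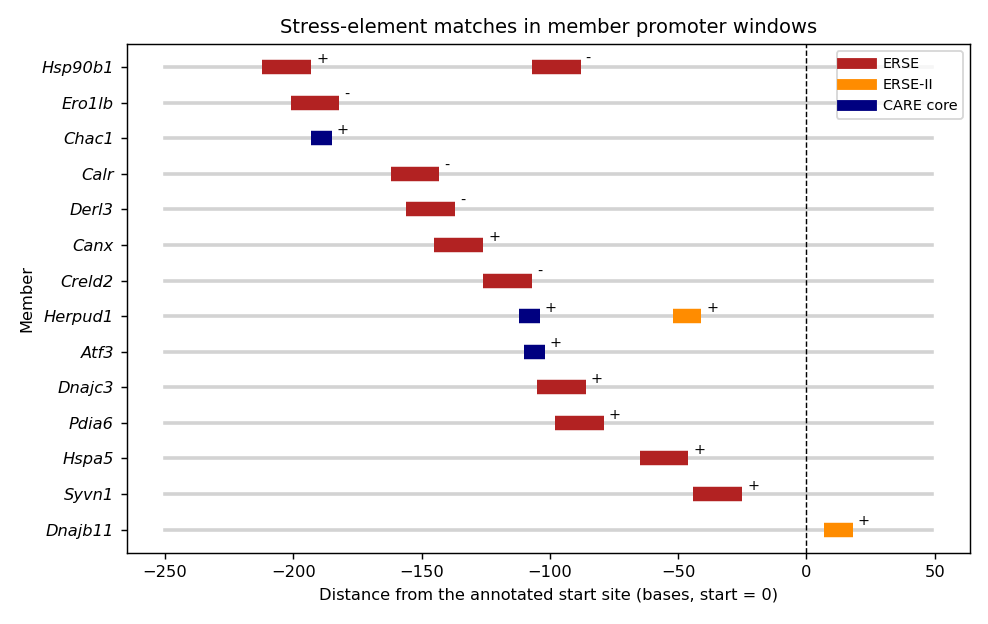
Matches to 3 stress elements in the promoter windows of the 14 members that hold one; the horizontal axis is the distance from the annotated start in bases, grey lines are the windows, coloured blocks the matches, and plus or minus is the strand relative to the gene. The ERSE matches all lie before the start, from position -212 in Hsp90b1 to -26 in Syvn1, and the ERSE-II of Dnajb11 lies just after it.

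The deposited values are scores, scaled so that the 35556 probe sets of each array average 8 with an SD of 2. They behave like logarithms of unstated base, so levels and differences are given in score units and without fold changes. All 35 members had means above the negative-control median of 6.69. An upper percentile of the negative controls was 8.75. Both diet means of Trib3, Atf3, Ddit3, Asns and Myd116 lay below it, as did the chow mean of Derl3. Of the other pathway genes named below, Nupr1, Vldlr, Fkbp11, Cryab, Pdia2, Uggt2 and Sel1l2 had both means below 8.75. The high-fat mean of Traf2 was below it as well. Levels of these genes were thus within the range of the brighter negative controls, and their results below carry that limit. Defining hepatocyte markers, such as Alb and Ttr, had a summed level (the mean score of 12 markers) of 14.4 to 14.7 on every array, as the tissue label implies. Pancreatic acinar transcripts were present on the DBA/2J chow and BXD63 high-fat arrays, where 20 of 26 markers lay above all 79 other arrays. The acinar list level was 8.23 and 8.67 on them and at most 7.30 elsewhere, and 9 of the 26 markers had means below the negative-control median. The diet, strain and correlation counts are given below with and without these strains. The labels name no array batch, so a technical difference between the chow and high-fat arrays and diet cannot be told apart. In RNA of whole liver, fewer cells of a type and less RNA per cell cannot be told apart either. As each strain and diet has 1 pool, p-values measure the spread between the pools of strains, not between animals.

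On the high-fat diet 16 of the 35 members rose, 3 fell and 16 did not pass the paired limma test (adjusted p under 0.05 over all genes). Those that rose were led by Manf, Sdf2l1 and Derl3, and those that fell were Ero1l, Atf6 and Atf4. Diet moved a large part of the transcriptome: 53.7% of all genes passed, 27.7% higher and 26.1% lower. The share of members that passed in either direction, 54.3%, was thus near the background, while 45.7% of members were higher and 8.57% lower. The counts by role and by pathway list given below stand against the same shares of all genes, 27.7% higher and 26.1% lower. The median difference of the members was 0.065 units, against 0.004 for all genes, and 25 of 35 were above 0. The count of members that rose depends on the pairing by strain: without the strain block 10 rose and 2 fell.

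**Figure D2:**
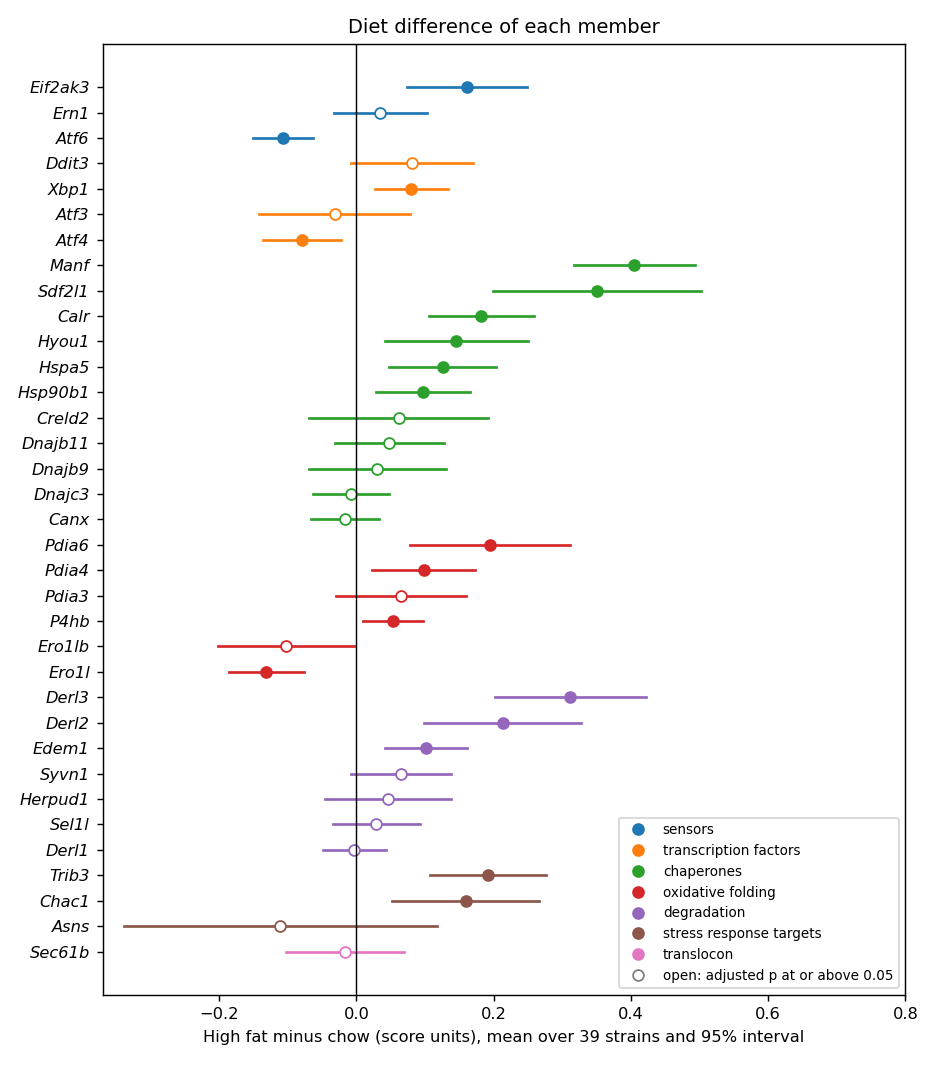
High fat minus chow for each of the 35 members in score units (horizontal axis), as the mean over 39 strains with its 95% interval, coloured by role; filled points passed the limma test and open points did not. Manf, Sdf2l1 and Derl3 lie farthest to the right, and Ero1l, Atf6 and Atf4 are the filled points left of 0.

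Of the sensors 1 rose, 1 fell and 1 did not pass. Eif2ak3 encodes PERK, the kinase that slows translation by phosphorylating eIF2alpha. Its level on chow ran from 8.26 in BXD71 through a median of 8.75 to 9.21 in DBA/2J, and on high fat from 8.36 in BXD44 through 8.91 to 9.49 in BXD64. The ranges overlapped over most of their length, and 30 of 39 strains were higher on high fat. The mean difference was 0.16 ± 0.04 units (SE; limma, adjusted p = 0.00175). Atf6, the sensor that is cut to release a transcription factor, went the other way. It lay between 10.61 and 11.01 on chow (median 10.84) and between 10.46 and 11 on high fat (median 10.75). Lower values on high fat were seen in 30 of 39 strains, and Atf6 fell by 0.11 ± 0.02 units (limma, adjusted p = 5.09e-05). Ern1, which encodes the endonuclease IRE1 that splices Xbp1 RNA, had medians of 10.58 and 10.61 and was higher in 20 of 39 strains (0.04 ± 0.03 units, adjusted p = 0.391). Its highest high-fat value, 11.24, belonged to BXD63, 1 of the arrays with acinar transcripts, and without BXD63 and DBA/2J the Ern1 difference was 0.03 units (adjusted p = 0.471).

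Among the transcription factors Xbp1 rose, Atf4 fell, and Ddit3 and Atf3 did not pass. Xbp1, the factor made active by IRE1 splicing, ranged from 12.05 to 12.83 on chow (median 12.43) and from 12.21 to 12.84 on high fat (median 12.56). The groups overlapped, with 27 of 39 strains higher on high fat, and the difference was 0.08 ± 0.03 units (limma, adjusted p = 0.00943). The arrays measure its total RNA and not its splicing. Atf4, the factor translated when eIF2alpha is phosphorylated, ranged from 8.82 to 9.62 on chow and from 8.83 to 9.64 on high fat. Its medians, 9.21 and 9.19, lay close together, but 27 of 39 strains were lower on high fat and the mean difference was -0.08 ± 0.03 units (adjusted p = 0.0167). Without the strain block neither call was kept (adjusted p = 0.0587 for Xbp1 and 0.109 for Atf4). Ddit3, which encodes the pro-apoptotic factor CHOP, differed by 0.08 ± 0.04 units (adjusted p = 0.116), and the stress-induced Atf3 by -0.03 ± 0.05 (adjusted p = 0.644). Atf3 spread widely, from 7.48 in BXD87 to 9.00 in BXD61 on chow.

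Of the 11 chaperones and cofactors 6 rose and none fell. Manf, a small protein of the endoplasmic reticulum that binds BiP and can be secreted, had the largest diet difference of all members. It ran from 8.57 in BXD73 through a median of 9.23 to 10.06 in C57BL/6J on chow, and from 9.06 in BXD44 through 9.67 to 10.36 in C57BL/6J on high fat. High-fat levels were above chow levels in 36 of 39 strains, although the ranges of the diets overlapped. The difference was 0.41 ± 0.04 units (limma, adjusted p = 1.7e-10), and BXD63 with -0.29 and BXD90 with 1.05 marked its ends. Sdf2l1, part of a BiP cochaperone complex with ERdj3, ran from 9.61 to 11.73 on chow (median 10.44) and from 9.42 to 12.04 on high fat (median 10.87). Both diets thus spanned over 2 units, and 29 of 39 strains were higher on high fat. Its difference of 0.35 ± 0.07 units passed (adjusted p = 0.000121), with strain values from -0.82 in BXD101 to 1.30 in BXD65.

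Calr, the lectin chaperone calreticulin, had medians of 12.66 on chow and 12.89 on high fat and was higher in 31 of 39 strains, by 0.18 ± 0.04 units (limma, adjusted p = 8.16e-05). Hspa5 itself ran from 12.72 in BXD73 through 13.33 to 13.85 in DBA/2J on chow, and from 13.02 in BXD44 through 13.47 to 13.98 in BXD90 on high fat. The groups overlapped and 30 of 39 strains were higher on high fat. The difference was 0.13 ± 0.04 units (adjusted p = 0.00544). Hyou1, a nucleotide exchange factor for BiP, and Hsp90b1, the reticulum's HSP90, were each higher in 25 of 39 strains, by 0.15 ± 0.05 and 0.10 ± 0.03 units (adjusted p = 0.0154 and 0.0139). Without the strain block the calls of Hspa5, Hyou1 and Hsp90b1 were lost (adjusted p = 0.0581, 0.146 and 0.07). Creld2, Dnajb9, Dnajb11, Dnajc3 and Canx did not pass, with differences from -0.02 units for Canx, the membrane lectin calnexin, to 0.06 for Creld2, a stress-induced protein with EGF-like domains. Creld2 was higher in 16 of 39 strains, and its strain differences ran from -0.46 in BXD48 to 1.39 in BXD90.

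**Figure D3:**
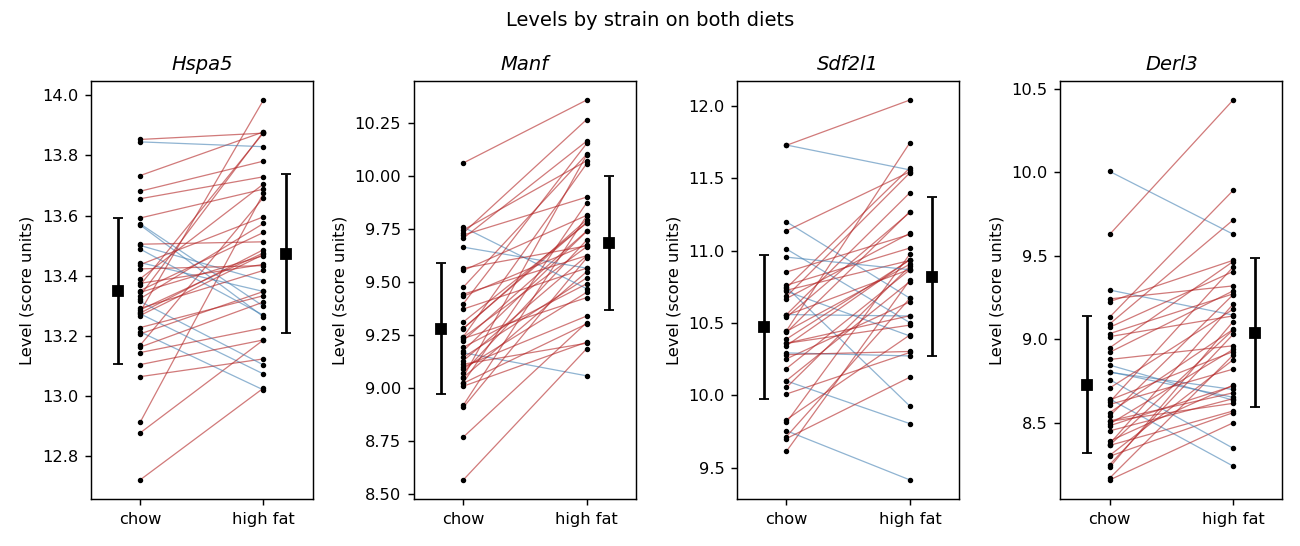
Levels of Hspa5, Manf, Sdf2l1 and Derl3 in score units (vertical axes) on chow and high fat; each line joins the arrays of 1 strain, red where high fat was higher and blue where it was lower, and squares with bars give the mean and SD of 39 strains. For Manf 36 of 39 lines rise, against 29 for Sdf2l1, 30 for Hspa5 and 32 for Derl3.

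In the oxidative folding group Pdia6, Pdia4 and P4hb rose and Ero1l fell. Pdia6, a protein disulfide isomerase, ran from 10.26 to 11.55 on chow (median 10.92) and from 10.42 to 11.83 on high fat (median 11.11). High-fat values were above chow values in 26 of 39 strains, by 0.20 ± 0.06 units (limma, adjusted p = 0.004). The isomerases Pdia4 and P4hb differed by 0.10 ± 0.04 and 0.05 ± 0.02 units (adjusted p = 0.0228 and 0.0372), and neither was called without the strain block (0.0962 and 0.169). P4hb also lost its call when the arrays were centred on their medians (0.0795) or when any 1 of 15 strains was left out (adjusted p = 0.051 to 0.0622). These were C57BL/6J, BXD48, BXD49, BXD61, BXD64, BXD81, BXD83, BXD84, BXD85, BXD87, BXD89, BXD96, BXD99, BXD100 and BXD103. Ero1l, the oxidase that returns electrons from these isomerases to oxygen, ran from 9.95 to 10.49 on chow (median 10.26) and from 9.84 to 10.38 on high fat (median 10.11). Values were lower on high fat in 31 of 39 strains, and Ero1l fell by 0.13 ± 0.03 units (adjusted p = 7.95e-05). Its paralog Ero1lb differed by -0.10 ± 0.05 units and did not pass (adjusted p = 0.0733), but it did without any 1 of BXD43, BXD61, BXD63, BXD81, BXD90 and BXD100 (0.0332 to 0.0498). The isomerase Pdia3 did not pass (0.07 ± 0.05, adjusted p = 0.241).

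Of the 7 degradation genes, which carry misfolded proteins back to the cytosol, 3 rose and none fell. Derl3, a derlin of the retrotranslocation channel, ran from 8.16 in BXD48 through 8.64 to 10.01 in BXD56 on chow, and from 8.24 in BXD44 through 9.03 to 10.43 in DBA/2J on high fat. The groups overlapped, with 32 of 39 strains higher on high fat, and the difference was 0.31 ± 0.05 units (limma, adjusted p = 5.65e-06). Derl2 and Edem1, a lectin that removes mannose-trimmed glycoproteins, were higher in 30 and 28 of 39 strains, by 0.21 ± 0.06 and 0.10 ± 0.03 units (adjusted p = 0.00151 and 0.0037). Derl1 differed by 0.00 ± 0.02 units (adjusted p = 0.924), so the 3 derlins had unlike values, although the differences between them were not tested. Syvn1, the ubiquitin ligase HRD1, its partner Sel1l and the scaffold protein Herpud1 differed by 0.06, 0.03 and 0.05 units and did not pass (adjusted p = 0.122, 0.45 and 0.405).

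The stress response targets were split. Trib3, a pseudokinase induced by ATF4 and CHOP, had medians of 8.37 and 8.49 and was higher in 28 of 39 strains, by 0.19 ± 0.04 units (limma, adjusted p = 0.000147). Chac1, an enzyme that degrades glutathione, was higher in 23 of 39 strains, by 0.16 ± 0.05 units (adjusted p = 0.0104). Asns, the asparagine synthetase induced by ATF4, did not pass (-0.11 ± 0.11, adjusted p = 0.418). Its median was 7.49 on chow and 7.43 on high fat, but single strains stood far above it: BXD70 had 10.31 on chow and 7.07 on high fat, BXD101 9.19 and 7.51, and BXD95 8.97 and 9.19. The SD of Asns between strains, 0.76 on chow, was the largest of the members. Ppp1r15a, listed as Myd116, encodes the GADD34 subunit that lets eIF2alpha be dephosphorylated. It averaged 8.23 ± 0.13 on chow and 7.95 ± 0.14 on high fat (SD, n = 39) and was lower in 37 of 39 strains, by -0.28 ± 0.03 units (SE; adjusted p = 2.67e-11). Sec61b, a subunit of the translocon, differed by -0.02 ± 0.04 units (adjusted p = 0.77), and its dimmer probe sets by 0.06 and 0.07.

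The other genes of the pathway did not lean to either side as a whole. Of 156 further genes of the reticulum and its stress response, 38 were higher (24.4%) and 37 lower (23.7%), with a median difference of 0.01 units. Among the ATF4 and integrated stress response targets 14 of 32 were higher and 7 lower, and those with the smallest p were Shmt2 (0.25 ± 0.03, mitochondrial serine metabolism), Gdf15 (0.40 ± 0.06, a stress hormone), Nupr1 (0.27 ± 0.04) and Vldlr (0.35 ± 0.06, a lipoprotein receptor). Of the other sensors and regulators 3 of 26 were higher and 7 lower, led by the ATF6 paralog Atf6b (-0.23 ± 0.03), Traf2 (-0.22 ± 0.03), Creb3l2 (0.19 ± 0.03) and Itpr1 (-0.11 ± 0.02). Of the other folding factors 6 of 30 were higher and 10 lower, led by Fkbp11 (0.23 ± 0.03), the BiP cochaperone Dnajc10 (0.27 ± 0.04), Pdia2 (-0.18 ± 0.03, below the negative-control median) and Txndc11 (0.17 ± 0.03).

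In glycosylation and glycan quality control 6 of 20 genes were higher and 4 lower, led by Uggt2 (-0.20 ± 0.02, below the negative-control median) and then the mannosyltransferase Alg12 (0.36 ± 0.04), Magt1 (0.20 ± 0.04) and Lman2 (0.14 ± 0.03). Of the other degradation genes 6 of 26 were higher and 3 lower, led by Rnf139 (-0.15 ± 0.03), Selk (0.18 ± 0.03), Sel1l2 (0.14 ± 0.03, below the negative-control median) and Nploc4 (-0.09 ± 0.02). Of the translocon genes 3 of 22 were higher and 6 lower, led by Ssr4 (-0.17 ± 0.02), Srp14 (0.19 ± 0.04), Srprb (0.13 ± 0.03) and Tram1 (-0.13 ± 0.03). In the cytosolic heat shock list 6 of 16 genes were higher and 1 lower, led by Hspb8 (0.22 ± 0.03), Hspa4l (0.17 ± 0.03), Cryab (0.13 ± 0.03) and Hspb1 (0.23 ± 0.08). Of the mitochondrial chaperones and proteases 0 of 11 rose and 2 fell, Clpx (-0.33 ± 0.05) and Trap1 (-0.05 ± 0.02).

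Markers of other cells were measured on the same arrays and are set against the background of 53.7%. Of 13 macrophage and Kupffer cell markers 10 were higher (76.9%) and none lower, and the summed level of the list ran from 9.18 to 11.03 on chow (median 9.58) and from 9.39 to 10.64 on high fat (median 9.79). None of these 13 had a mean below the negative-control median. Plasma cell markers, which belong to cells with abundant reticulum, were higher for 3 and lower for 4 of 12 (58.3% in all, near the background), with list medians of 7.87 (7.75 to 8.45) on chow and 7.89 (7.70 to 8.10) on high fat, and 3 of the 12 lay below the negative-control median. B cell markers were higher for 1 and lower for 5 of 9 (66.7% in all), 4 of them below that median, with list ranges of 6.93 to 7.38 and 6.72 to 7.16. The part of these cells in the member differences was not tested. In the plasma cell list Sdc1, Txndc5 and Cd38 were the brightest, with chow means of 11.80, 11.02 and 10.26. Txndc5 was also counted among the other folding factors, and the level of this list need not come from plasma cells alone. BXD61 on chow had the highest level of the macrophage, plasma cell and B cell lists (11.03, 8.45 and 7.38). The same array had the highest Atf3 on chow. Without BXD61, 15 members rose and 4 fell. Without BXD63 and DBA/2J, the strains with acinar transcripts, 16 members rose and 3 fell, as with them.

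The diet difference of the members was uneven between strains. In single strains between 5 and 32 of the 35 members were higher on high fat, with a median of 21. BXD65 (32) and BXD87, BXD90 and BXD100 (30 each) stood at the upper end, and BXD101 (5), BXD44 (9) and BXD68 (9) at the lower. More members were higher than lower on high fat in 27 strains and fewer in 12. All 16 members that rose in the test were higher in BXD65 and BXD87, but only 2 of them were higher in each of BXD44 and BXD101. These 16 were picked by a test over the same strains, so their count describes single strains and is no separate evidence. The largest rise of a member over all strains fell in BXD100 for 13 members and in BXD90 for 6. None of these counts by strain was made over all genes. In BXD100 Hspa5 went from 12.91 to 13.67, Hyou1 from 10.15 to 11.26 and Sdf2l1 from 9.61 to 10.80.

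Strain differences were more frequent among the members than diet differences relative to the background. The moderated F-test over strains was passed by 25 of 35 members, 71.4%, against 22.3% of all genes. The members were also brighter, with a median chow mean of 10.7 against 8.03 for all genes, and no share was taken over genes of like level. The share of variance between strains (an intraclass share, 0 where strains differ by noise alone) had a median of 44.5% over the members and 19.6% over all genes. Of the 156 other pathway genes 57 passed (36.5%). Among them the glycosylation and glycan quality control genes came near the members, with 13 of 20 (65%) and a median share of 43.7%. The strain test was also passed by 10 of 16 cytosolic heat shock genes and 1 of 11 mitochondrial chaperones. All 13 macrophage and Kupffer cell markers passed it. By role 10 of 11 chaperones passed, 5 of 6 oxidative folding genes, 4 of 7 degradation genes, 3 of 4 transcription factors, 2 of 3 sensors and 1 of 3 stress response targets. Those that did not pass were Atf6, Ddit3, Canx, Ero1l, Derl1, Derl2, Edem1, Trib3, Chac1 and Sec61b. Without BXD63 and DBA/2J, 22 members passed.

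Syvn1 had the smallest strain p (limma F-test, adjusted p = 8.26e-07) and a strain share of 70.8%. Its means over both diets ran from 10.10 in BXD61 to 11.35 in DBA/2J. Derl3 followed with 64.6% (adjusted p = 6.45e-06), from 8.33 in BXD48 to 10.03 in DBA/2J. Hyou1 had a strain share of 60.6% (adjusted p = 3.92e-05), from 10.30 in BXD103 to 11.73 in C57BL/6J, and Creld2 58.2% (adjusted p = 7.05e-05), from 9.65 in BXD103 to 11.51 in C57BL/6J. Manf ran from 8.87 in BXD73 to 10.21 in C57BL/6J, with a share of 59.3% (adjusted p = 8.59e-05). Chac1 stood at the other end, with a strain share of -3.6% (adjusted p = 0.544).

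The parents were high in many members. The ranks given here were counted over the members alone, and members that vary together also move in rank together. Whether the parents rank as high over all genes was not tested. On chow both were among the 5 highest of 39 strains in 14 of 35 members, and in 6 members, Xbp1 and Hyou1 among them, they were the first 2. On high fat both were among the 5 highest in 9 members. DBA/2J had the highest value of all strains in 11 members on chow and in 9 on high fat, and C57BL/6J in 9 and 3. The DBA/2J chow array is 1 of those with acinar transcripts, whereas its high-fat array is not. Since each parent has 1 array per diet, the contrast between them rests on 2 arrays each, and 1 of 35 members passed it, against 2.39% of all genes. This was Derl3, with 8.92 on chow and 9.29 on high fat in C57BL/6J and 9.63 and 10.43 in DBA/2J, a difference of -0.93 ± 0.24 units (limma, adjusted p = 0.0219). The call did not hold without either C57BL/6J array, where the sizes of -0.90 and -0.95 units were near that with all arrays (adjusted p = 0.2 and 0.112), or without the DBA/2J high-fat array (-0.67 units, adjusted p = 0.388). It held without the DBA/2J chow array (-1.18 units, adjusted p = 0.0246).

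The lowest values of many members came from a few strains. BXD44 had the lowest high-fat value of all strains in 17 members and was among the lowest 5 in 23, against 13 on chow. BXD100 was among the lowest 5 in 21 members on chow and in 1 on high fat. BXD73 and BXD103 were among the lowest 5 in 19 members each on chow and in 7 and 8 on high fat, and BXD80 in 11 and 9. BXD73, BXD80 and BXD103 resembled each other in an earlier account of these data. At the upper end, BXD64 was among the highest 5 in 13 members on chow and in 17 on high fat. None of these orders was tested beyond the strain test of each member. The ranks were not counted over all genes, and members that vary together move in rank together. Whether these strains stand out in the members more than in other genes was thus not tested.

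**Figure D4:**
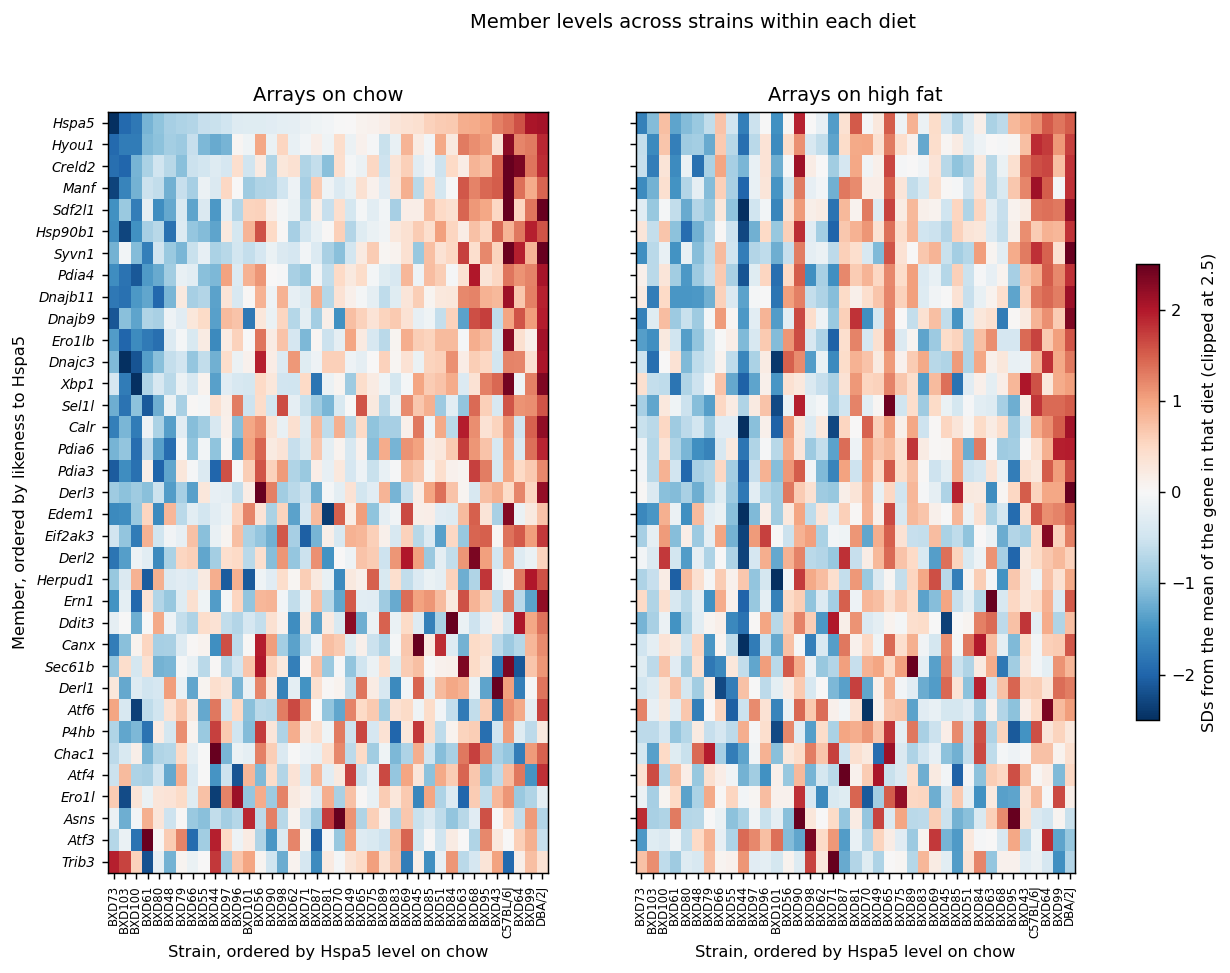
Levels of the 35 members (rows, ordered by likeness to Hspa5) in 39 strains (columns, ordered by Hspa5 on chow) on chow (left) and high fat (right), as SDs from the mean of the gene in that diet, red high and blue low. The upper rows share their columns of colour, with BXD73, BXD103 and BXD100 blue on chow, BXD44 blue on high fat and both parents mostly red, whereas Trib3, Atf3 and Asns in the lowest rows do not follow them.

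Members were then compared with Hspa5 over the 39 strains within each diet, and in their difference between diets, which uses the arrays of both. Pearson's r was tested by two-sided permutation (100000 draws) and adjusted over 21764 genes and all 3 families. On chow 16 of 34 members varied with Hspa5 in the same direction, against 0.266% of all genes (58 of 21764). On high fat it was 18 of 34 against 0.289% (63 genes), and for the diet difference 11 of 34 against 0.0827% (18 genes). No member passed with a negative r, against 0.023%, 0.0138% and 0.00459% of all genes. The 16 of chow all passed on high fat too, joined by Derl3 and Edem1. Without the 2 strains farthest from the median of Hspa5 the counts were 10, 15 and 9, and by Spearman's rho 13, 18 and 7. Without BXD63 and DBA/2J, the strains with acinar transcripts, they were 14, 16 and 11.

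Hyou1 was closest on chow, with r = 0.884 (rho 0.852; permutation p = 1e-05, the smallest the draws can give; adjusted p = 0.0109), and r = 0.86 on high fat and 0.794 for the diet difference. Without the 2 strains farthest from the median of Hspa5 its r was 0.857, 0.846 and 0.723. Creld2 had r = 0.853, 0.891 and 0.837 (rho 0.781, 0.911 and 0.732; adjusted p = 0.0109 in each), although its own mean did not pass the diet test. Manf had r = 0.846, 0.872 and 0.79 and Sdf2l1 0.82, 0.809 and 0.775, all with an adjusted p of 0.0109. Strains with higher Hspa5 thus tended to have higher levels of these genes on each diet, and a larger diet difference in Hspa5 went with larger ones in Hyou1, Creld2, Manf and Sdf2l1. Without the 2 strains r stayed between 0.724 and 0.875 for Creld2, Manf and Sdf2l1. Without BXD63 and DBA/2J it was 0.868, 0.859 and 0.777 for Hyou1, 0.842, 0.882 and 0.838 for Creld2, 0.835, 0.862 and 0.78 for Manf, and 0.788, 0.798 and 0.755 for Sdf2l1.

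Over all 21764 other genes ranked by the mean of r on chow and high fat, the first 8 were members: Hyou1 and Creld2 (0.872 each), Manf (0.859), Sdf2l1 (0.814), Hsp90b1 (0.812), Syvn1 (0.808), Pdia4 (0.79) and Dnajb11 (0.787). The same 8 came first without BXD63 and DBA/2J. Of the first 20 genes 14 were members. The 5 nearest genes outside the set were Alg12 (0.731), Uso1 (0.696), Sec23b (0.688), Slc35b1 (0.67) and Txndc11 (0.656). Without BXD63 and DBA/2J they were Alg12 (0.702), Uso1 (0.685), Sec23b (0.664), Lysmd3 (0.659) and Slc35b1 (0.647), and Txndc11 was not among the first 20. Alg12 encodes a mannosyltransferase of the reticulum, Uso1 and Sec23b vesicle transport proteins, Slc35b1 a nucleotide transporter and Txndc11 a thioredoxin domain protein.

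Of the regulators, Xbp1 had r = 0.728, 0.68 and 0.626 and passed in all families (adjusted p = 0.0109, 0.0109 and 0.0176). The sensors Ern1 and Eif2ak3 had r of 0.416 and 0.483 on chow and 0.408 and 0.599 on high fat and did not pass (Eif2ak3 on high fat, adjusted p = 0.0505), nor did Atf6 (0.136 and 0.352). Of Atf4 and the stress response targets none passed: Atf4 had r = 0.264 and 0.144, Asns 0.088 and 0.106, Chac1 0.144 and 0.29, and Trib3 -0.156 and -0.363. The other transcription factors, Ddit3 (0.291 and 0.451) and Atf3 (0.132 and -0.15), did not pass either. Of the enzymes of oxidative folding Pdia4, Ero1lb, Pdia6 and Pdia3 passed on both diets, with r between 0.612 and 0.804, whereas Ero1l (-0.057 and 0.338) and P4hb (0.153 and 0.311) did not. By Spearman's rho neither Pdia3 (adjusted p = 0.236) nor Ero1lb (0.0522) passed on chow. Among degradation genes Syvn1 (0.79 and 0.826) and Sel1l (0.602 and 0.797) passed on both, and Derl1, Derl2 and Herpud1 on neither. By rho Sel1l did not pass on chow (rho 0.505, adjusted p = 0.225), whereas Derl3 did (rho 0.621, adjusted p = 0.0276).

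**Figure D5:**
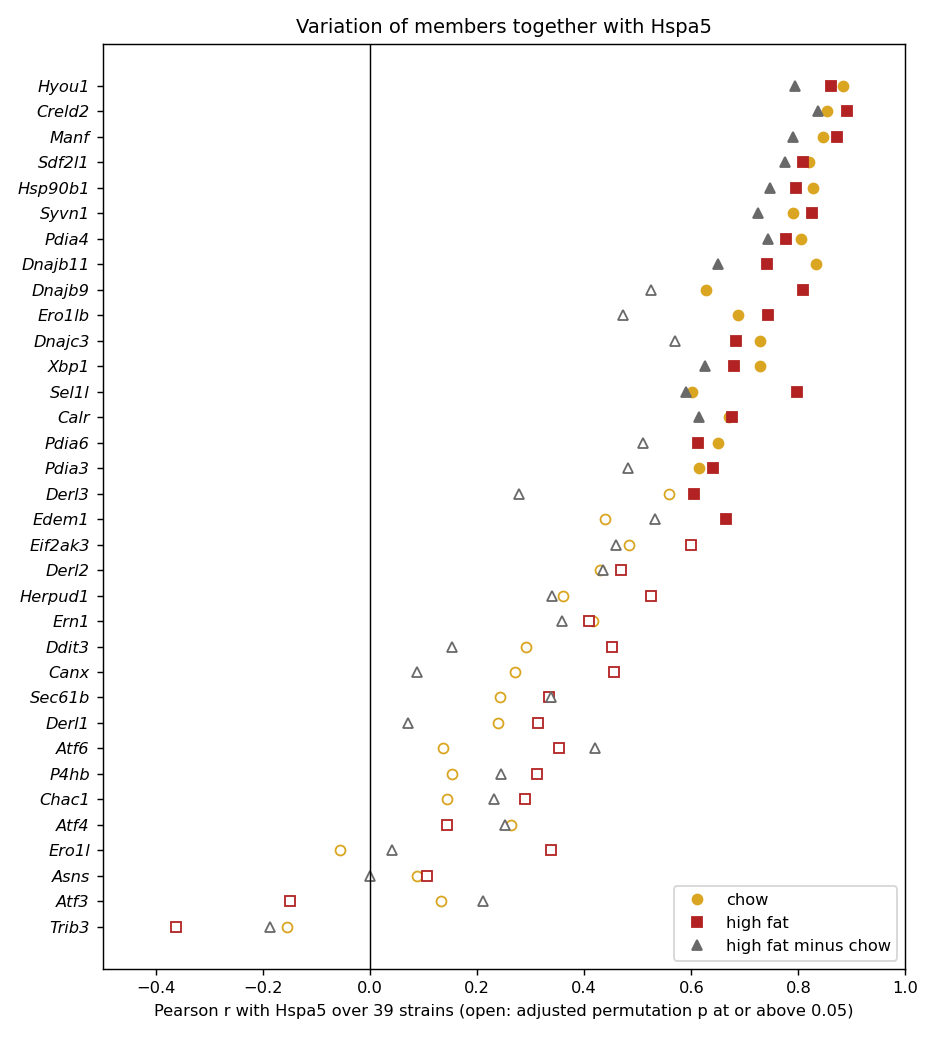
Pearson's r of 34 members with Hspa5 over 39 strains (horizontal axis), on chow (circles), on high fat (squares) and for high fat minus chow (triangles); filled symbols passed the permutation test after adjustment over all genes. Hyou1, Creld2, Manf and Sdf2l1 lie above 0.75 in all 3, and Trib3 lies below 0 in all 3 without passing.

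The promoter stretches shown above can be set beside this order. Of the 11 members that passed in all 3 families 9 had a promoter window, and 5 of these held an ERSE or ERSE-II (Calr, Creld2, Dnajb11, Hsp90b1 and Syvn1). By Spearman's rho 4 of the 11 did not pass for the diet difference, namely Sel1l (adjusted p = 0.31) and 3 of the 5 with an element, Calr (0.0874), Dnajb11 (0.0783) and Syvn1 (0.102). Of the other members 21 had a window, and 6 of these held one (Canx, Derl3, Dnajc3, Ero1lb, Herpud1 and Pdia6). Canx thus held the letters of the element but had r = 0.27 on chow, whereas Sdf2l1 and Pdia4 had r above 0.8 on chow and no match in their windows.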

How the data were processed

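Liver RNA pools of 81 strain and diet groups were run on Affymetrix arrays, and summarised with Affymetrix Expression Console, per the submitters' processing notes. Its version and the summarisation method are stated nowhere in the sources at hand. Scores deposited by the authors had the same mean (8) and SD (2) on every array. The planned limma tests assumed log values and were run on the scores unchanged. Of the probe sets, 25096 carried 1 symbol, and the one with the highest mean stood for its gene, with symbols as deposited.

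Diet (high fat minus chow), strain (moderated F-test) and parents (C57BL/6J minus DBA/2J) were tested with limma 3.58.1 in R 4.3.3 on 78 arrays, with strain as a block for diet and p-values were adjusted by Benjamini-Hochberg over all 21765 genes (threshold 0.05). Arrays were paired by the strain in their labels. As a check, the chow and high-fat deviations of a strain had a median correlation of 0.338 over all genes, and it was over 0.1 in 37 of 39 strains. Correlations with Hspa5 (39 strains, 100000 permutations, seeded) were adjusted over 65292 tests (21764 genes in 3 families), not over the members alone as first planned. The tests were tested on simulated data.

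The members and lists were chosen with earlier results of these data known. Named are, in each role group, up to 4 members with the smallest diet p and those against their group, the 5 smallest strain p, up to 4 genes of each other list, the 5 genes nearest to Hspa5, and sequences of up to 8 members. Alternatives were no strain block, median centring, array weights, another probe set, a filter on dim genes, rank correlation, and strains or arrays left out. Protein sequences were not analysed here.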

Additional observations from a re-analysis of the deposited data

How the results depend on the processing

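Of the 19 members past the diet threshold, 12 kept direction and call under every alternative run, and no called difference changed sign. Without the strain block (no paired analysis) 10 members were higher on the 78 paired arrays and 10 on all 81, and 2 were lower in both. The calls lost were those of Xbp1, Atf4, Hspa5, Hsp90b1, Hyou1, P4hb and Pdia4. With any 1 strain left out 15 to 16 members were higher, 3 to 4 lower, and 22 to 26 passed the strain test. With array weights 17 were higher, with Pdia3 added (adjusted p = 0.041). Between 0 and 1 member differed between the parents with any 1 of their arrays left out. The number varying with Hspa5 on chow was 10 without the 2 strains farthest from its median, and 11 without both parents, an alternative chosen after seeing the data. For the diet difference it was 7 by Spearman's rho. Leaving out BXD80, BXD103 and BXD97, which an earlier account of these data found to resemble other strains, gave 15, 16 and 9. Precision rests on how many arrays there are, and pools hide the spread between animals.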

Other observations

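A few strains had an array for 1 diet only and entered no paired comparison. BXD60 was low on chow: its Sdf2l1 (9.44) and Derl3 (8.08) lay below the lowest of the 39 paired chow arrays (9.61 and 8.16). Its Hspa5 was 12.92, Hyou1 10.18 and Manf 8.99. BXD92a on chow had Hspa5 at 13.55, Hyou1 at 10.92, Manf at 9.57, Sdf2l1 at 10.80 and Derl3 at 9.15, each above the median of the paired chow arrays. Its Asns, at 7.18, lay below that median (7.49). BXD50 on high fat had Hspa5 at 13.19, Hyou1 at 10.42, Manf at 9.42, Sdf2l1 at 9.94 and Derl3 at 8.67, each below the median of the paired high-fat arrays. These are single arrays, and no test was made on them.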
